A study of Mus musculus with 20 samples.

Results

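The miR-15/16 seed family, with miR-503, was followed through chemically induced skin carcinogenesis in FVB/N mice. Members were taken by name from the table of small RNA counts: every mature microRNA (miRNA) named miR-15a, miR-15b, miR-16, miR-195, miR-497, miR-322 or miR-503, in any arm or copy. This gave 15 of 1137 mature miRNAs, of which 7 were 5p arms and 8 were 3p arms, in a table of 2127 features. A further 10 names share only the opening digits of miR-195 and were not taken. The family was chosen from these libraries with its levels known, so the members' levels, fold changes and calls are given as a description, without a test of their own.

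The study sequenced small RNA from skin biopsies in 4 groups of 5 libraries each, all from the same strain. Healthy skin came from mice treated with acetone, the usual solvent in this model. Hyperplastic skin, papilloma and cutaneous squamous cell carcinoma (cSCC) all came from mice treated with DMBA, a mutagen, and PMA, a tumour promoter. Papillomas are benign outgrowths and cSCCs are malignant. No source used here gives doses, treatment times, ages or sexes, and no label says whether the libraries of a group came from different animals. Every p-value therefore measures only the spread between these libraries, which may be technical.

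Mature miRNA counts ranged from 2884177 to 4921719 in healthy skin, from 3142228 to 6904298 in hyperplastic skin, from 1060615 to 2370313 in papillomas and from 1614803 to 2903657 in cSCCs. All 15 members had counts in all 20 libraries and all passed the filter on low counts. The smallest count of any member was 6, for miR-195-3p in a papilloma. Levels are given in CPM, the counts per 1000000 mature miRNA counts of the library, scaled between libraries with TMM factors over the 850 miRNAs tested. A miRNA is called higher or lower where its adjusted p is under 0.05 in edgeR's quasi-likelihood test over all 850. In a biopsy, fewer cells of a type and less RNA per cell cannot be told apart.

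A miRNA guides Argonaute proteins to messenger RNAs that pair with its seed, the short stretch near its 5′ end, and lowers their output. The miR-15/16 family is known for holding back cell division, by targeting cyclins and other cell cycle genes, and for targeting the survival gene Bcl2. In human chronic lymphocytic leukaemia the locus of miR-15a and miR-16-1 is often lost. In mouse skin miR-195 and miR-497 are known as a brake on the cell cycle, and miR-322 is the rodent counterpart of human miR-424.

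The mature 5p sequences are shown because the seed defines the family and sets miR-503 slightly apart. They are from RefSeq (GRCm38.p6), 5′ to 3′, with the seed (bases 2 to 8) in capitals, and all 15 members matched an entry there.
mmu-miR-16-5p: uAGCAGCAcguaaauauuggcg
mmu-miR-195-5p: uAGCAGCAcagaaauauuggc
mmu-miR-497-5p: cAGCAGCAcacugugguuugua
mmu-miR-15b-5p: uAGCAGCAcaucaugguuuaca
mmu-miR-15a-5p: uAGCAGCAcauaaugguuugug
mmu-miR-322-5p: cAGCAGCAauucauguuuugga
mmu-miR-503-5p: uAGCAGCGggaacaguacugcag
The seed was identical in 6 of the 7. miR-503-5p differed from it at the last seed base (A8G, with miR-16-5p as the first sequence and bases counted from the 5′ end). Beyond the seed, miR-16-5p and miR-195-5p differed at 2 of 21 compared bases, and miR-15a-5p and miR-15b-5p at 4 of 22. miR-503-5p differed from each of the other 5p members at 10 to 12 bases. How reads that match more than 1 of these sequences were assigned is not stated here by any source. The 8 3p arms had 8 different seeds, so by seed the family is its 5p arms.

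The members come from 4 loci. The authors' table, on mm9, gives intervals that can run past the mature sequence. It places miR-15a-5p at chr14:62250911-62250934 and miR-16-5p at chr14:62250772-62250795, in the miR-15a/16-1 pair. It places miR-15b-5p at chr3:68813696-68813719, beside miR-16-2. miR-497-5p lies at chr11:70048231-70048254 and miR-195-5p at chr11:70048563-70048585. miR-322-5p lies at chrX:50407482-50407505 and miR-503-5p at chrX:50407203-50407227. In the GENCODE annotation of GRCm38 the chromosome 14 pair lies in an intron of Dleu2, a long non-coding RNA, and the chromosome 3 pair in an intron of Smc4, a condensin subunit gene. The other loci overlap no host gene on their strand, although Mir497b lies opposite miR-497. Mature miR-16-5p is the same from chromosomes 3 and 14, so its single row in the table cannot be split between them.

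The 2 X-linked 5p members did not share a profile. miR-503-5p was high in cSCC, whereas miR-322-5p spread widely in each group. Healthy skin had 41, 31.8, 33, 27.1 and 25.2 CPM of miR-503-5p, and hyperplastic skin had 30.3, 29, 41, 41.2 and 50.2 CPM. Papillomas had 33.7, 22.8, 26.4, 27.9 and 47.6 CPM of miR-503-5p, and cSCCs had 105, 85.6, 132, 61.3 and 153 CPM. Every cSCC library was above every library of the other 3 groups, which overlapped one another. The means were 31.6 ± 6.14 CPM in healthy skin, 38.3 ± 8.77 in hyperplastic skin, 31.7 ± 9.73 in the papillomas and 107 ± 36.4 in the cSCCs (SD, n = 5 each). These levels rest on 137 to 350 raw counts per cSCC library, 46 to 84 per papilloma, 105 to 218 per hyperplastic library and 73 to 159 per healthy library. In the fit over all miRNAs the log2 fold change of miR-503-5p was 1.76 ± 0.28 (SE) for cSCC against healthy skin, 1.76 ± 0.28 for cSCC against papilloma and 1.49 ± 0.28 for cSCC against hyperplastic skin. It was 0.00 ± 0.28 for papilloma against healthy skin and 0.28 ± 0.28 for hyperplastic against healthy skin.

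For miR-322-5p, healthy skin had 696, 401, 275, 465 and 470 CPM, and hyperplastic skin had 430, 523, 328, 483 and 701 CPM. Papillomas had 429, 265, 236, 272 and 383 CPM of miR-322-5p, and cSCCs had 452, 243, 690, 342 and 832 CPM. The 4 groups overlapped, and the cSCC libraries spanned a wider range than the healthy ones at both ends. The means were 461 ± 153 CPM in healthy skin, 493 ± 137 in hyperplastic skin, 317 ± 83.7 in the papillomas and 512 ± 245 in the cSCCs (SD, n = 5 each). The log2 fold change of miR-322-5p was 0.15 ± 0.31 (SE) for cSCC against healthy skin, −0.54 ± 0.31 for papilloma against healthy skin and 0.69 ± 0.31 for cSCC against papilloma, and none of these was called. Its sign against healthy skin turned under other settings, which are listed with the processing.

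The 5p arms of the chromosome 11 pair, miR-195 and miR-497, were low in both tumour groups. Healthy skin had 4085, 5822, 5315, 4077 and 3544 CPM of miR-195-5p, and hyperplastic skin had 4000, 4344, 4953, 5042 and 5480 CPM. Papillomas had 2231, 2755, 1378, 2132 and 1395 CPM of miR-195-5p, and cSCCs had 1413, 947, 1843, 1730 and 1260 CPM. Each papilloma and each cSCC library was below each healthy and each hyperplastic library, and the tumour groups overlapped each other. The means were 4569 ± 955 CPM in healthy skin, 4764 ± 588 in hyperplastic skin, 1978 ± 590 in the papillomas and 1439 ± 361 in the cSCCs (SD, n = 5 each). Its log2 fold change was −1.67 ± 0.25 (SE) for cSCC and −1.21 ± 0.24 for papilloma against healthy skin. Against hyperplastic skin it was −1.73 ± 0.25 for cSCC and −1.27 ± 0.24 for papilloma. For cSCC against papilloma it was −0.46 ± 0.24 and was not called.

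For miR-497-5p, healthy skin had 1947, 1980, 1414, 1968 and 1291 CPM, and hyperplastic skin had 1873, 2367, 1744, 1922 and 3388 CPM. Papillomas had 1023, 1225, 653, 1006 and 450 CPM of miR-497-5p, and cSCCs had 372, 172, 556, 472 and 518 CPM. All tumour libraries again lay below all healthy and hyperplastic libraries, and only the lowest papilloma reached into the cSCC range. The means were 1720 ± 339 CPM in healthy skin, 2259 ± 673 in hyperplastic skin, 871 ± 313 in the papillomas and 418 ± 154 in the cSCCs (SD, n = 5 each). The log2 fold change was −2.04 ± 0.31 (SE) for cSCC against healthy skin, −2.43 ± 0.32 for cSCC against hyperplastic skin and −1.37 ± 0.31 for papilloma against hyperplastic skin. It was −0.98 ± 0.30 for papilloma against healthy skin and 0.39 ± 0.30 for hyperplastic against healthy skin. miR-497-5p also had a log2 fold change of −1.06 ± 0.30 for cSCC against papilloma. That call was lost when any of cSCC libraries 1, 2 and 4, papilloma libraries 1, 3, 4 and 5 or healthy library 3 was left out, with log2 fold changes from −1.02 to −0.80.

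The chromosome 14 and chromosome 3 pairs differed in their miR-15 members. miR-15a-5p was low in both tumour groups, and miR-15b-5p, 4 bases away in sequence, was not. Healthy skin had 1051, 766, 718, 677 and 601 CPM of miR-15a-5p, and hyperplastic skin had 738, 704, 861, 828 and 698 CPM. Papillomas had 516, 489, 304, 475 and 370 CPM of miR-15a-5p, and cSCCs had 348, 341, 493, 431 and 484 CPM. No tumour library reached a healthy or hyperplastic library. The means were 762 ± 172 CPM in healthy skin, 766 ± 74.2 in hyperplastic skin, 431 ± 89.9 in the papillomas and 420 ± 72.5 in the cSCCs (SD, n = 5 each). The log2 fold change of miR-15a-5p was −0.86 ± 0.22 (SE) for cSCC and −0.82 ± 0.22 for papilloma against healthy skin.

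For miR-15b-5p, healthy skin had 1018, 856, 806, 623 and 562 CPM, and hyperplastic skin had 1058, 1012, 1291, 1051 and 844 CPM. Papillomas had 975, 1121, 817, 1228 and 1014 CPM of miR-15b-5p, and cSCCs had 900, 886, 1089, 1167 and 1057 CPM. The 4 groups overlapped, with the 2 lowest values both in healthy skin. The means were 773 ± 184 CPM in healthy skin, 1051 ± 160 in hyperplastic skin, 1031 ± 155 in the papillomas and 1020 ± 123 in the cSCCs (SD, n = 5 each). The log2 fold change of miR-15b-5p against healthy skin was 0.40 ± 0.22 (SE) for cSCC, 0.42 ± 0.22 for papilloma and 0.44 ± 0.22 for hyperplastic skin, and none was called.

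miR-16-5p, made from both of these loci, had the most counts of the family. Healthy skin had 7535, 9128, 7866, 11483 and 7913 CPM, and hyperplastic skin had 4553, 5475, 5519, 6857 and 9092 CPM. Papillomas had 4151, 5727, 2945, 3816 and 2618 CPM of miR-16-5p, and cSCCs had 4112, 3679, 4950, 5357 and 3456 CPM. Both tumour groups lay below healthy skin, and both overlapped hyperplastic skin. The means were 8785 ± 1630 CPM in healthy skin, 6299 ± 1760 in hyperplastic skin, 3851 ± 1220 in the papillomas and 4311 ± 817 in the cSCCs (SD, n = 5 each). The log2 fold change of miR-16-5p against healthy skin was −1.03 ± 0.24 (SE) for cSCC, −1.19 ± 0.25 for papilloma and −0.48 ± 0.24 for hyperplastic skin.

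**Figure D1:**
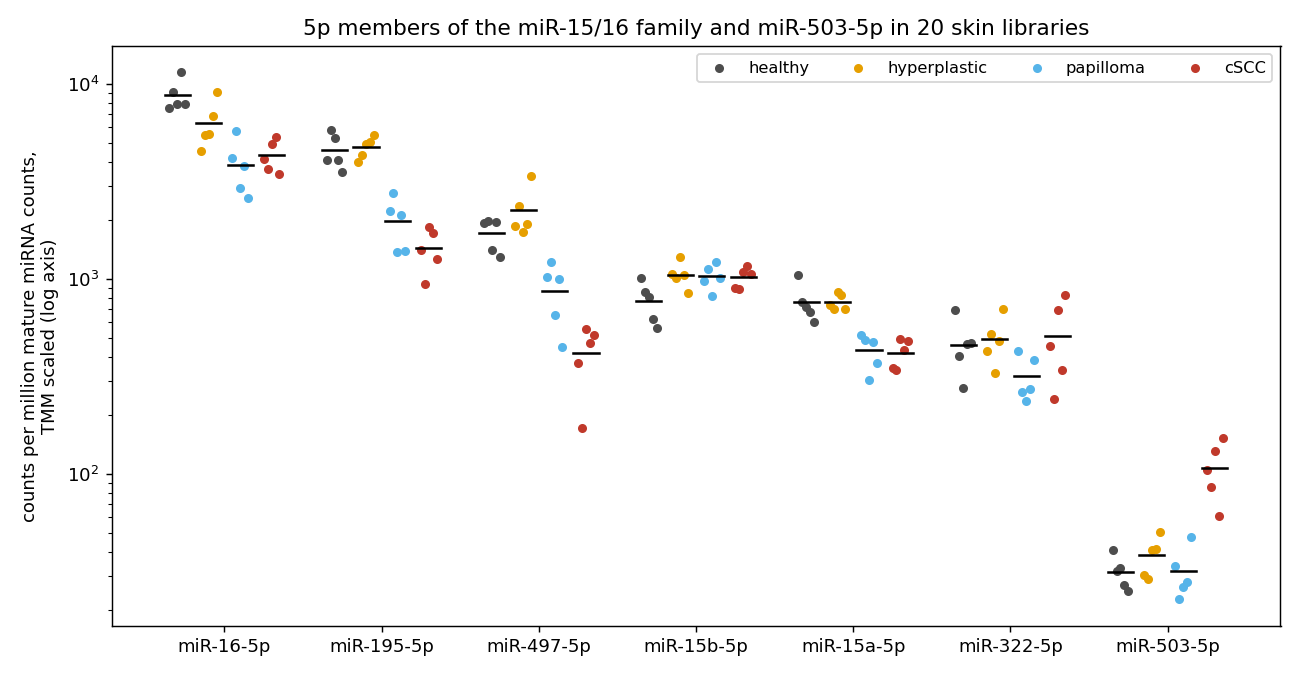
CPM (log axis) of the 7 5p members in each of 20 libraries, by stage, with points for libraries and bars for group means. miR-503-5p stands apart in cSCC (61.3 to 153 CPM), while miR-195-5p and miR-497-5p are lower in papilloma and cSCC than in healthy and hyperplastic skin.

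These fold changes depend on the scaling between libraries. With TMM factors from the 293 miRNAs averaging at least 50 CPM, the log2 fold changes of all 850 tested miRNAs moved up by a median of 0.71 for cSCC and of 0.66 for papilloma against healthy skin. The shift was 0.09 for hyperplastic against healthy skin and 0.05 for cSCC against papilloma. Under this scaling miR-503-5p had a log2 fold change of 2.48, miR-15b-5p of 1.10 and miR-322-5p of 0.88 for cSCC against healthy skin, and all 3 were called higher. miR-195-5p at −0.99 and miR-497-5p at −1.34 were still called lower in that comparison, whereas miR-16-5p at −0.32 and miR-15a-5p at −0.15 were not. For papilloma against healthy skin the values were 1.07 for miR-15b-5p, 0.70 for miR-503-5p, −0.60 for miR-195-5p, −0.56 for miR-16-5p, −0.37 for miR-497-5p and −0.19 for miR-15a-5p. Of these, miR-15b-5p was called higher, and miR-195-5p and miR-16-5p were called lower. Under it cSCC and papilloma libraries overlapped for miR-503-5p. Tumour and healthy libraries then overlapped for miR-16-5p and miR-15a-5p, tumour and hyperplastic libraries for miR-15a-5p, and papilloma and healthy libraries for miR-195-5p and miR-497-5p.

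**Figure D2:**
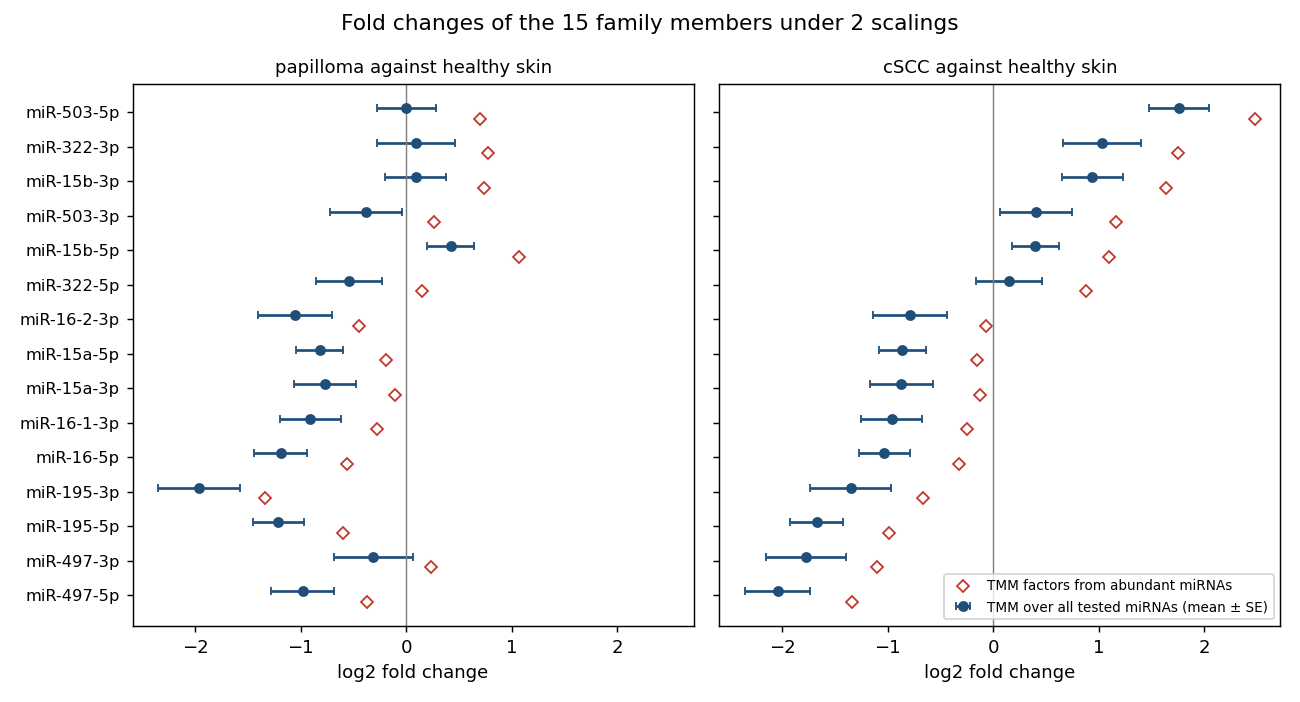
Log2 fold change of each of the 15 members in papilloma (left) and cSCC (right) against healthy skin, as circles with standard errors under TMM over all tested miRNAs and as open diamonds under TMM factors from abundant miRNAs. The diamonds lie to the right of the circles throughout; miR-503-5p is at 1.76 and 2.48 in cSCC and miR-497-5p at −2.04 and −1.34.

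Counted over the family, 3 members were called higher and 8 lower for cSCC against healthy skin, where 26.2% of all tested miRNAs were called higher and 21.3% lower. For papilloma against healthy skin 0 were called higher and 8 lower, beside 24% and 20.7% of all tested miRNAs. At an unadjusted p under 0.05 the same edgeR test also had 0 members higher in papilloma, as had DESeq2. For hyperplastic against healthy skin edgeR called 0 members in either direction, beside 0% and 0% of all tested miRNAs. At an unadjusted p under 0.05 it had 1 higher and 1 lower, and DESeq2 called 0. The median log2 fold change of the 15 members was −0.86 for cSCC and −0.77 for papilloma against healthy skin, beside 0.35 and 0.40 over all tested miRNAs. With the abundant miRNAs' factors the counts became 6 higher and 3 lower in cSCC and 2 higher and 3 lower in papilloma against healthy skin, and the medians became −0.12 and −0.11, beside 1.06 and 1.08 over all tested miRNAs. Under these factors 53.1% of all tested miRNAs were called higher and 12% lower for cSCC, and 50.1% and 8.59% for papilloma, against healthy skin. Only 293 of the 850 tested miRNAs averaged at least 50 CPM. In a fit of these 293 alone, 11 members were tested. Their median log2 fold change against healthy skin was −0.12 for cSCC and 0.15 for papilloma, beside 0.14 and 0.13 over all 293.

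Among the other comparisons, cSCC against papilloma had 1 member called higher, miR-503-5p, and 2 lower, both arms of miR-497, beside 6.82% and 4.71% of all tested miRNAs. For cSCC against hyperplastic skin 2 members were called higher, miR-503-5p and miR-15b-3p, and 4 lower, miR-195-5p, miR-15a-5p and both arms of miR-497, beside 24.5% and 20.5%. For papilloma against hyperplastic skin 0 were called higher and 6 lower, beside 21.3% and 17.1%. Those 6 were miR-16-5p, miR-15a-5p and both arms of miR-195 and miR-497. edgeR at an unadjusted p under 0.05 and DESeq2 had 0 higher there too. With the abundant miRNAs' factors the counts were 6 higher and 3 lower for cSCC and 2 higher and 2 lower for papilloma against hyperplastic skin, and miR-15a-5p was called in neither. Of all tested miRNAs, 43.4% were then called higher and 9.65% lower for cSCC, and 37.6% and 5.65% for papilloma. For papilloma with the factors of all tested miRNAs, the miR-16-5p call was lost without hyperplastic library 7 or 8 (log2 fold changes −0.64 and −0.52, against −0.71 with them). The miR-497-3p call in that comparison, at −0.98, was lost without hyperplastic library 5, 7 or 8 or papilloma library 4 or 6 (−0.99 to −0.84).

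The 3p arms, the less abundant strands, followed their loci in part. For cSCC against healthy skin the log2 fold change was 1.03 ± 0.37 (SE) for miR-322-3p and 0.94 ± 0.29 for miR-15b-3p, both called higher. It was −1.77 ± 0.38 for miR-497-3p, −1.35 ± 0.38 for miR-195-3p, −0.96 ± 0.29 for miR-16-1-3p and −0.87 ± 0.30 for miR-15a-3p, all called lower. miR-503-3p at 0.41 ± 0.34 and miR-16-2-3p at −0.79 ± 0.35 were not called. miR-16-2-3p was called lower once any of 7 libraries was left out, namely cSCC 6, healthy 3, hyperplastic 2 and 8 and papilloma 3, 4 and 6 (log2 fold changes −0.94 to −0.79). Levels in cSCC ranged from 16.5 to 28.7 CPM for miR-497-3p, against 27.1 to 115 CPM in healthy skin, and from 122 to 242 CPM for miR-15b-3p, against 61 to 112 CPM in healthy skin. The miR-15b-3p libraries of these groups did not overlap, and those of miR-497-3p did.

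With the abundant miRNAs' factors miR-497-3p, at −1.10, was the 1 of these 4 lower 3p arms still called. Other 3p calls rested on single libraries. The miR-322-3p call was lost without cSCC library 3 or 6, healthy library 3, 4 or 7 or hyperplastic library 2, with log2 fold changes from 0.64 to 0.97. The miR-15b-3p call was lost without cSCC library 4 (0.69), and that of miR-15a-3p without healthy library 5 or 7 (−0.71 each). miR-497-3p had a log2 fold change of −2.44 ± 0.39 for cSCC against hyperplastic skin, and −1.46 ± 0.38 for cSCC against papilloma. The call against papilloma was lost without cSCC library 4 or papilloma library 3 or 5 (−1.34 to −1.21). The miR-15b-3p call for cSCC against hyperplastic skin, at 0.73 ± 0.29, was lost without any of cSCC libraries 3, 4 and 6, hyperplastic libraries 2 and 8, healthy library 4 or papilloma library 3 (0.49 to 0.69).

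For papilloma against healthy skin the log2 fold change was −1.96 ± 0.39 (SE) for miR-195-3p, −1.05 ± 0.35 for miR-16-2-3p, −0.91 ± 0.29 for miR-16-1-3p and −0.77 ± 0.29 for miR-15a-3p, all called lower. miR-195-3p averaged 31.3 ± 6.64 CPM in healthy skin, 19.7 ± 8.93 in hyperplastic skin, 7.85 ± 4.07 in the papillomas and 12.3 ± 4.44 in the cSCCs (SD, n = 5 each), so its lowest mean was in papilloma. The miR-15a-3p call was lost without healthy library 5 or 7 (−0.69 each). With the abundant miRNAs' factors miR-195-3p alone of these 4 was called, at −1.34.

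The family's total is given first as a share of all mature miRNA counts, so it depends on the other miRNAs of each library. The 15 members together held 1.43% ± 0.21 of mature miRNA counts in healthy skin, 1.51% ± 0.161 in hyperplastic skin, 1.10% ± 0.177 in the papillomas and 0.899% ± 0.108 in the cSCCs (SD, n = 5 each). The smaller total in cSCC, 0.809% to 1.06% against 1.23% to 1.67% in healthy skin, went with a different make-up. The shares that follow are of the counts of the 7 5p members and need no scaling between libraries. They take no account of how well each sequence is captured.

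miR-16-5p held the largest share in every group, at 51.3% ± 5.68 in healthy skin, 39.7% ± 3.75 in hyperplastic skin, 44.9% ± 3.06 in the papillomas and 52.5% ± 5.22 in the cSCCs (SD, n = 5 each). miR-15b-5p took 4.55% ± 1.13 in healthy skin, 6.95% ± 1.81 in hyperplastic skin, 12.6% ± 2.61 in the papillomas and 12.5% ± 1.21 in the cSCCs, and no tumour library was as low as any healthy library. The share of miR-15a-5p was 4.50% ± 1.12 in healthy skin, 5.02% ± 0.977 in hyperplastic skin, 5.14% ± 0.658 in the papillomas and 5.14% ± 0.716 in the cSCCs, within the spread of each group. The shares of the chromosome 11 pair were smaller in cSCC than in hyperplastic skin in every library. miR-195-5p held 26.7% ± 4.65 in healthy skin, 30.7% ± 2.40 in hyperplastic skin, 23.1% ± 1.03 in the papillomas and 17.3% ± 1.67 in the cSCCs. miR-497-5p held 10% ± 1.31 in healthy skin, 14.3% ± 2.37 in hyperplastic skin, 10% ± 1.64 in the papillomas and 4.97% ± 1.46 in the cSCCs. The X-linked pair held larger shares in cSCC on average. The share of miR-322-5p was 2.74% ± 1.03 in healthy skin, 3.13% ± 0.559 in hyperplastic skin, 3.94% ± 1.47 in the papillomas and 6.21% ± 2.91 in the cSCCs, with overlap. The share of miR-503-5p was 0.187% ± 0.0415 in healthy skin, 0.244% ± 0.0281 in hyperplastic skin, 0.408% ± 0.212 in the papillomas and 1.34% ± 0.471 in the cSCCs. Its cSCC shares, 0.641% to 1.97%, overlapped papilloma at 1 library of 0.759%.

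**Figure D3:**
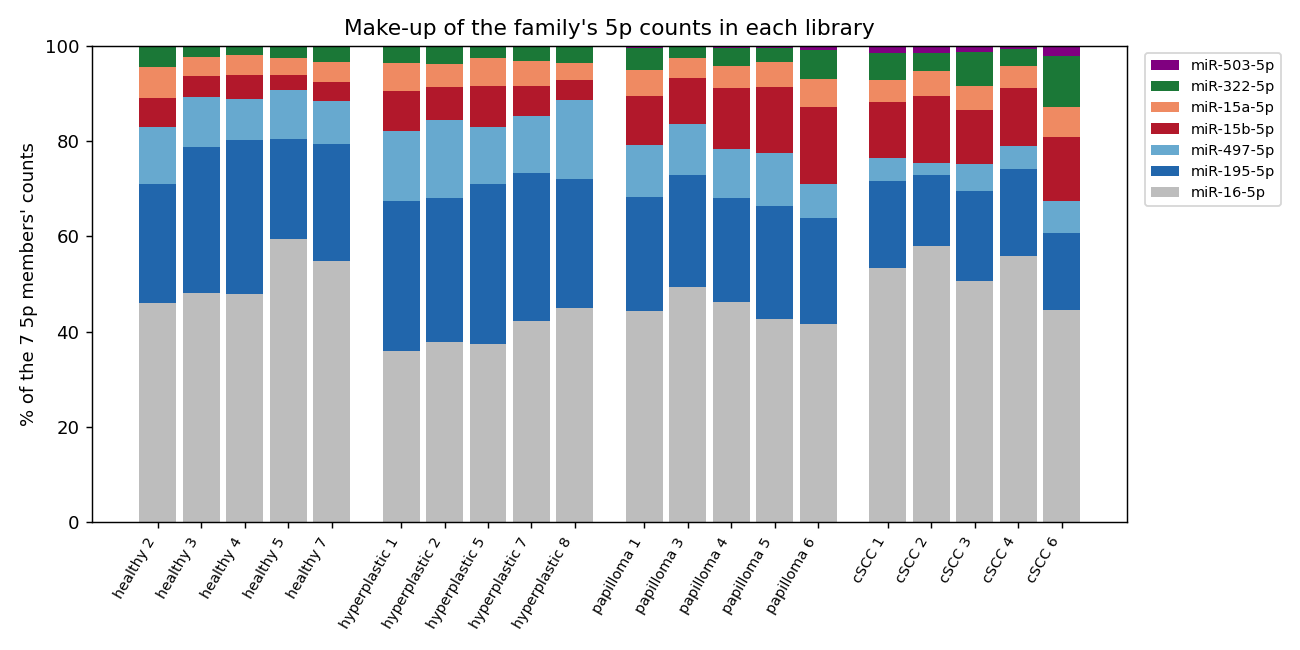
Make-up of the 7 5p members' counts in each library (stacked bars, % of their sum), with stages from left to right. The miR-15b-5p band averages 12.5% in cSCC, against 4.55% in healthy skin, and the miR-497-5p band 4.97% in cSCC, against 10% in healthy skin.

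Ratios of 2 members inside 1 library compare the loci directly. Of 9 such ratios between loci or neighbours, 5 did not overlap for cSCC against healthy skin, 2 for papilloma against healthy skin and 1 for hyperplastic against healthy skin. Among all 42778 ratios of 2 of the 293 abundant miRNAs, 40.3%, 32.6% and 1.44% did not overlap in these 3 comparisons. Against hyperplastic skin 6 of the 9 did not overlap for cSCC and 3 for papilloma, beside 38.2% and 24.7%. For cSCC against papilloma 2 did not overlap, beside 13.6%. The 9 ratios share members, and 1 of them, miR-16-2-3p over miR-16-1-3p, lies outside the 293, with means of 33.2 and 18.2 CPM.

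The ratio of miR-15b-5p over miR-15a-5p was the only 1 of the 9 whose libraries in hyperplastic skin, papilloma and cSCC all lay outside the healthy range. Its log2 value was −0.05, 0.16, 0.17, −0.12 and −0.10 in healthy skin and 0.52, 0.52, 0.58, 0.34 and 0.27 in hyperplastic skin. It was 0.92, 1.20, 1.43, 1.37 and 1.45 in papillomas and 1.37, 1.38, 1.14, 1.43 and 1.12 in cSCCs. Healthy skin, hyperplastic skin and the tumours thus formed 3 ranges without overlap, and papilloma and cSCC shared one. The median ratio was 0.968 in healthy skin, 1.43 in hyperplastic skin, 2.59 in the papillomas and 2.58 in the cSCCs. The star arms of the miR-16 copies gave no such separation. The log2 ratio of miR-16-2-3p over miR-16-1-3p had a median of 1.13 in healthy skin, 0.70 in hyperplastic skin, 0.44 in the papillomas and 0.98 in the cSCCs, with overlap in every comparison, on counts of 16 to 212 per library.

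The neighbours miR-503 and miR-322 also parted within libraries. The log2 ratio of miR-503-5p over miR-322-5p was −4.08, −3.65, −3.04, −4.08 and −4.20 in healthy skin and −3.81, −4.16, −2.99, −3.55 and −3.79 in hyperplastic skin. It was −3.65, −3.51, −3.14, −3.27 and −2.99 in papillomas and −2.10, −1.5, −2.38, −2.47 and −2.44 in cSCCs. Every cSCC library lay above every other library, with a median ratio of 0.0592 in healthy skin, 0.0721 in hyperplastic skin, 0.104 in the papillomas and 0.192 in the cSCCs. The arm ratios of these 2 miRNAs went in opposite directions. The log2 ratio of miR-322-3p over miR-322-5p had a median of −1.25 in cSCC against −1.87 in healthy skin, and that of miR-503-3p over miR-503-5p had a median of −1.75 in cSCC against −0.59 in healthy skin. The cSCC and healthy libraries did not overlap for these 2 of the 6 arm ratios, beside 40.3% of the ratios of 2 abundant miRNAs. That share is not a like background. It covers pairs from any loci and leaves out miR-503-3p, which averaged 23 CPM over the 20 libraries.

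The chromosome 11 neighbours stayed closer together for cSCC against healthy skin. The log2 ratio of miR-497-5p over miR-195-5p ranged from −2.46 to −1.28 in cSCC against −1.91 to −1.05 in healthy skin. Its median was −1.87 in cSCC, against −1.46 in healthy skin, and it overlapped in every comparison. For cSCC the difference of medians was −0.78 against hyperplastic skin and −0.75 against papilloma. In the latter comparison that of miR-503-5p over miR-322-5p was 0.89. Across loci, the log2 ratio of miR-15b-5p over miR-195-5p ranged from −0.76 to −0.10 in cSCC and from −1.30 to −0.46 in papilloma, against −2.77 to −2 in healthy skin, with no overlap of either tumour group with healthy skin.

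**Figure D4:**
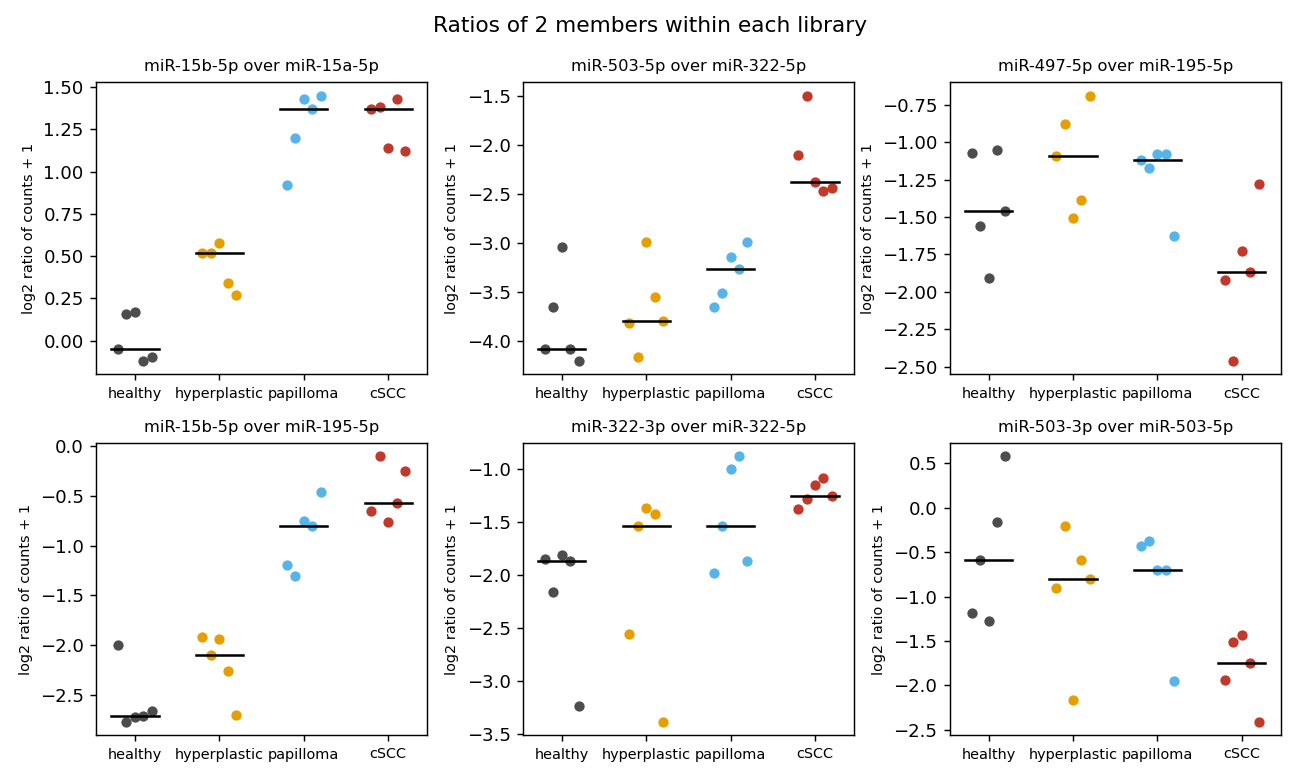
Log2 ratios of 2 members' counts (plus 1 count each) within each library, by stage, with a bar at each median. The miR-15b-5p over miR-15a-5p ratio forms 3 separate ranges with medians of −0.05 in healthy skin, 0.52 in hyperplastic skin and 1.37 in both tumour groups, and the miR-503-5p over miR-322-5p ratio is highest in cSCC.

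The X-linked cluster holds other miRNAs of different seeds, miR-351, miR-542, miR-450a and miR-450b. They have 9 entries, of which 6 could be tested. This list was chosen with earlier results of these data known, so its adjusted p-values are descriptive. For cSCC against healthy skin 3 of the 6 were called higher, miR-351-5p, miR-542-5p and miR-450a-1-3p, and 0 lower, beside 26.2% and 21.3% of all tested miRNAs. At an unadjusted p under 0.05 edgeR had the same 3 in all, and DESeq2 called 2 higher and 0 lower. A total of 5 of the 6 were called higher with the abundant miRNAs' factors, beside 53.1%. For papilloma against healthy skin edgeR called 0, beside 24% higher and 20.7% lower, and neither an unadjusted p under 0.05 nor DESeq2 gave any. Under the abundant miRNAs' factors 1 was called higher there, miR-450a-1-3p at 1.31, beside 50.1%, and the median log2 fold change of the 6 was 0.59, against −0.08 with the factors of all tested miRNAs. miR-351-5p had 92.1, 79.2, 194, 103 and 141 CPM in cSCCs, against 41.5, 40.5, 41.4, 44 and 49 CPM in healthy skin. Papillomas ranged from 31.7 to 49.3 CPM and hyperplastic skin from 27.6 to 56.8 CPM, so every cSCC library was above all others. The log2 fold change of miR-351-5p was 1.49 ± 0.27 (SE; edgeR adjusted p = 7.81e-05) for cSCC against healthy skin, higher in 5 of 5 libraries. It was 1.64 ± 0.27 for cSCC against papilloma (edgeR adjusted p = 0.000279) and 1.53 ± 0.27 for cSCC against hyperplastic skin (edgeR adjusted p = 7.4e-05). With the abundant miRNAs' factors it was 2.21 for cSCC against healthy skin.

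miR-103-3p and miR-107-3p carry the family's seed 1 base earlier, at bases 1 to 7.
mmu-miR-103-3p: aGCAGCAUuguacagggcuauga
mmu-miR-107-3p: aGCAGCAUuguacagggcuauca
They differ from each other at 1 base near the 3′ end, so their counts may share reads. Both were chosen with earlier results of these data known, so their adjusted p-values are also descriptive. miR-103-3p averaged 3972 CPM in cSCC and 3762 CPM in papilloma, against 7231 CPM in healthy skin. Its log2 fold change was −0.86 ± 0.23 (SE; edgeR adjusted p = 0.0034) for cSCC and −0.94 ± 0.23 (edgeR adjusted p = 0.00247) for papilloma against healthy skin, lower in 5 of 5 libraries of each. For miR-107-3p the values were −1.02 ± 0.23 (edgeR adjusted p = 0.000911) for cSCC and −0.85 ± 0.23 (edgeR adjusted p = 0.00523) for papilloma against healthy skin. With the abundant miRNAs' factors miR-103-3p was at −0.16 for cSCC and −0.30 for papilloma, and miR-107-3p at −0.31 for cSCC and −0.21 for papilloma, and none of these was called. Of the 5 entries of miR-103 and miR-107, all 5 were called lower for cSCC and 3 for papilloma against healthy skin, beside 21.3% and 20.7% of all tested miRNAs. Under those factors 1 was called lower in each, miR-107-5p, beside 12% and 8.59%.

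Likeness was measured as the root mean square distance between centred log2(CPM + 1) profiles over the 20 libraries, against 283 other miRNAs of at least 50 CPM. The nearest to miR-503-5p was miR-351-5p at 0.45, followed by miR-494-3p and miR-541-5p at 0.61 each, where the median distance was 1.13. The nearest to miR-16-5p were miR-425-5p at 0.21, miR-125b-5p at 0.29 and miR-103-3p at 0.29, where the median was 0.66. Within the family the closest pairs were miR-16-5p with miR-15a-5p at 0.39 and miR-195-5p with miR-497-5p at 0.42. The most distant pair was miR-497-5p with miR-503-5p at 1.68.

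Markers of other cell types were summed in each library beside these results. All listed markers of keratinocytes, striated muscle, smooth muscle, endothelium, fibroblasts and leukocytes had counts in every group, and 3 of 4 listed erythroid names were among the features used. The 2 smooth muscle markers (miR-143-3p and miR-145-5p) summed to 53599 to 110327 CPM in healthy skin, 36784 to 83390 CPM in hyperplastic skin, 16213 to 26057 CPM in the papillomas and 13902 to 24309 CPM in the cSCCs. The 2 endothelial markers summed to 23610 to 43320 CPM in healthy skin, 14828 to 37124 CPM in hyperplastic skin, 9862 to 15936 CPM in the papillomas and 8811 to 19035 CPM in the cSCCs. The 3 fibroblast and mesenchyme markers summed to 19545 to 49332 CPM in healthy skin, 17861 to 43850 CPM in hyperplastic skin, 11763 to 16967 CPM in the papillomas and 5428 to 16750 CPM in the cSCCs. With the TMM factors over all tested miRNAs, these 3 sums, like miR-195-5p and miR-497-5p, were below all healthy libraries in every tumour library. The same held for the striated muscle sum and for other members, miR-16-5p and miR-15a-5p among them. The sums were not computed with the abundant miRNAs' factors, which raise tumour levels against healthy skin. The separation of the sums may therefore not hold under those factors. In hyperplastic skin the smooth muscle, endothelial and fibroblast sums had lower medians than in healthy skin. These were 42959 against 80832 CPM for smooth muscle, 17598 against 28891 CPM for endothelium and 22667 against 33560 CPM for fibroblasts and mesenchyme. The median of miR-195-5p was higher in hyperplastic skin, at 4953 against 4085 CPM. That of miR-497-5p was slightly lower, at 1922 against 1947 CPM, although the means of both miRNAs were not lower there. The 7 striated muscle markers summed to 19324 to 77337 CPM in healthy skin, 16451 to 49895 CPM in hyperplastic skin, 1764 to 9183 CPM in the papillomas and 1568 to 3622 CPM in the cSCCs. The 4 leukocyte markers summed to 18550 to 35817 CPM in healthy skin, 9620 to 22769 CPM in hyperplastic skin, 14898 to 60579 CPM in the papillomas and 47619 to 109473 CPM in the cSCCs, where miR-503-5p was also high. The 5 keratinocyte markers summed to 153465 to 249064 CPM in healthy skin, 172115 to 218814 CPM in hyperplastic skin, 105908 to 205774 CPM in the papillomas and 74292 to 140462 CPM in the cSCCs. The 3 erythroid markers overlapped in all groups, with 2221 to 6936 CPM in healthy skin, 1892 to 12534 CPM in hyperplastic skin, 2683 to 10799 CPM in the papillomas and 2834 to 7702 CPM in the cSCCs. The part of these cell types in the family's differences was not tested.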

How the data were processed

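The authors deposited 1 table of raw counts per small RNA feature for 20 libraries. A miRNeasy kit gave the RNA and a NEBNext small RNA kit the size-selected libraries, per the labels' protocols, for a SOLiD sequencer. Per the submitters' processing notes the build was mm9. The aligner was not given in the sources used here, nor was the handling of reads with several matches.

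Mature miRNAs with a miRBase identifier were kept, and 35 further miRNA-class entries were left out. Counts were fitted with edgeR 4.0.16 in R 4.3.3 (filterByExpr with a minimum count of 10, TMM factors, quasi-likelihood test) over all 20 libraries with 1 term per group. Benjamini-Hochberg adjustment ran over 850 miRNAs, two-sided. The script was tested on simulated data. DESeq2 1.42.0, other scalings and filters, a replicate block and fits without each library were alternatives.

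Ratios used counts plus 1. Each 5p member is printed by library, since each averaged at least 50 CPM in 1 group; other members are given by range and counts. The members and lists were chosen with earlier results of these data known. No 2 libraries of a group agreed within sampling noise (chi-square per degree of freedom 70.1 or more). Standard errors were derived from the fold change and the F statistic of edgeR's test. They rest on a spread between libraries that is shared by all 4 groups and moderated over the tested miRNAs, counting error included.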

Additional observations from a re-analysis of the deposited data

How the results depend on the processing

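The calls of miR-503-5p for cSCC against healthy skin, papilloma and hyperplastic skin, and those of miR-195-5p and miR-497-5p for cSCC against healthy and hyperplastic skin, held under all 30 alternatives tried. Fold changes were recomputed for a selected set of members and comparisons, with miR-351-5p, miR-103-3p and miR-107-3p among them. Of these 1582 fold changes 17 changed sign, all of miR-322-5p or miR-503-5p against healthy skin. Signs also changed outside this set with the abundant miRNAs' factors, and only some of those changes are given here. For papilloma against hyperplastic skin miR-15b-5p went from −0.03 to 0.55, where it was called higher, and miR-503-5p from −0.28 to 0.36. For cSCC against hyperplastic skin miR-15b-5p went from −0.04 to 0.57 and miR-16-5p from −0.55 to 0.09. For papilloma against healthy skin miR-497-3p went from −0.31 to 0.23 and miR-503-3p from −0.38 to 0.26. Medians of the ratios moved by less than the spread between libraries in all 96 recomputations.

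With TMM factors from abundant miRNAs the family had 6 members called higher and 3 lower for cSCC against healthy skin. For papilloma against healthy skin the calls were 2 higher and 3 lower. They were 2 and 2 for cSCC against papilloma and for papilloma against hyperplastic skin. For cSCC against hyperplastic skin they were 6 and 3. A fit of only miRNAs of at least 50 CPM tested 11 of the 15 members and 293 miRNAs in all. In the same order its calls were 5 and 3, 2 and 2, 2 and 2, 2 and 2, and 5 and 3. Of all 293, 107 and 76, 85 and 60, 38 and 36, 46 and 41, and 81 and 68 were called. For other settings, here and below, only some counts are listed, and a count left out does not mean that no member was called. With total counts the family's calls were 5 lower for cSCC and 2 higher and 3 lower for papilloma against healthy skin. They were 2 lower for papilloma against hyperplastic skin. The matching counts over all tested miRNAs were 145, 409 and 74, and 58. Under these 3 settings the papilloma against healthy log2 fold changes were 0.15, 0.15 and 0.13 for miR-322-5p and 0.70, 0.70 and 0.67 for miR-503-5p. Over all tested miRNAs, papilloma against healthy skin had 204 called higher, but 426 with the abundant miRNAs' factors, 409 with total counts, 96 without the filter and 49 without papilloma libraries 4 and 6.

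Without the low-count filter 1 member was called higher for cSCC against healthy skin, 1 lower for cSCC against papilloma and 1 higher for cSCC against hyperplastic skin, beside 152, 21 and 140 of all miRNAs. Fits of only the 2 groups compared gave 1 higher for papilloma against healthy skin, 1 lower for cSCC against papilloma and 1 higher for cSCC against hyperplastic skin, beside 198, 32 and 169 of all miRNAs, and miR-503-5p was at 0.19 for papilloma against healthy skin. DESeq2 called 2 higher for cSCC against papilloma and 1 higher for cSCC against hyperplastic skin, beside 64 and 201, and its size factors in edgeR gave 1 higher for the second of these, beside 196. The miR-322-5p log2 fold change for cSCC against healthy skin was −0.01 under both, and −0.14 without the filter. The cause of these changes was not tested.

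Left out in turn, single libraries gave 1 to 3 members higher and 0 to 2 lower for cSCC against papilloma and 1 to 3 higher for cSCC against hyperplastic skin, beside 41 to 66, 14 to 34 and 157 to 252 of all miRNAs. They put miR-322-5p at −0.26 to 0.38 for cSCC and miR-503-5p at −0.42 to 0.07 for papilloma against healthy skin. Chosen after seeing the data, leaving out papilloma libraries 4 and 6, the shallowest, gave 4 lower for papilloma against healthy skin and 2 lower for papilloma against hyperplastic skin, beside 140 and 63 of all miRNAs. Leaving out hyperplastic libraries 7 and 8, which held the most striated muscle miRNAs of the 5 hyperplastic libraries, gave 2 higher for cSCC against papilloma and 1 higher for cSCC against hyperplastic skin, beside 62 and 123.

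Replicate numbers gave no clear sign of pairing: 3 of 17 same-numbered pairs of libraries correlated above 0.1 (range −0.17 to 0.23). Of the 20 libraries 3 correlated best with their own number. This cannot exclude that same-numbered libraries share an animal, because no label names the animals and no chance level was computed. With the replicate block the family's calls were 5 lower for papilloma against healthy skin, 2 higher and 1 lower for cSCC against papilloma, 2 lower for papilloma against hyperplastic skin and 1 higher for cSCC against hyperplastic skin, beside 130, 47 and 33, 44, and 94 of all miRNAs, and miR-322-5p was at −0.05 for cSCC against healthy skin.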
